A study of Vitis vinifera with 24 samples.

Results

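The berries of PB and V vines were compared at harvest, with 3 arrays of PB berries and 3 arrays of V berries chosen by their titles and sampling stage, that is 6 of the 24 arrays of the series. PB vines had lost the main and lateral leaves of the 6 basal shoot nodes before flowering, at Julian Day (JD) 147, and V vines had lost the same leaves at veraison, the onset of ripening, at JD 211. The vines of both groups were field-grown adult plants of Vitis vinifera cv Sangiovese, a red wine cultivar, of a single clone on a single rootstock, in one vineyard row. Each array held RNA of the berry without seeds from a pool of berries collected on 3 vines of a block, so the replicates were pools from separate blocks and the spread between single vines was not measured. Both groups were defoliated and carried the same experiment label, and no untreated berries (C) entered the main comparison, which therefore asked only whether the date of leaf removal was reflected in the transcripts of the ripe berry. In such whole-tissue RNA, fewer cells of a type and less RNA per cell cannot be told apart.

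Leaves supply the sugar that flowers and fruits import, and those at the base of the shoot also shade the clusters. Leaf removal before flowering takes away photosynthetic area while the fruit is being set, and the canopy can regrow afterwards. Removal at veraison exposes berries to sun and heat just as they begin to soften, import sugar and, in red cultivars, accumulate anthocyanins. Transcripts for photosynthesis and early growth are known to decline as ripening proceeds, while others linked to sugar storage, pigment and stress protection accumulate.

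Each array carried 117999 grapevine probes and 19091 probes of random sequence, which match no grapevine transcript by design and so show the background of hybridization. The intensities ran from 20.35 to 61689.18 and had been normalized by the authors with both kinds of probe together. The probe identifiers are not linked to genes in any table used here. Values are therefore given per probe, no gene or pathway is named, and the tissue label was not checked against marker genes. The small number of arrays limits the precision of every value below.

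The random-sequence probes were brighter on PB arrays than on V arrays. Their mean log2 intensity was 6.38, 6.56 and 6.03 in PB replicates 1, 2 and 3, and 6.03, 5.91 and 5.98 in V replicates 1, 2 and 3. The group means were 6.33 ± 0.27 for PB and 5.97 ± 0.06 for V (SD, n = 3 each). PB replicates 1 and 2 stood above all V arrays, whereas PB replicate 3 was level with V replicate 1 at this rounding and higher by less than the last digit. The difference of 0.35 gave p = 0.1 (exact permutation test, two-sided), which is the lowest value that 3 against 3 arrays can give, and 0.2 after Benjamini-Hochberg adjustment over the 5 measures per array that were compared. At the end of veraison (EV) the same probes had averaged 5.94 ± 0.05 in PB and 5.94 ± 0.0028 in V.

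The higher background went together with fewer grapevine probes above it on PB arrays. The share of grapevine probes above the 95th percentile of the random-sequence probes of the same array was 47.2%, 42.6% and 58.6% in PB berries, against 58.9%, 62.6% and 57.7% in V berries. PB replicates 1 and 2 were below every V array, and PB replicate 3 lay among the V arrays. PB averaged 49.5% ± 8.21 and V 59.7% ± 2.54 (SD, n = 3 each), a difference of -10.2 percentage points (exact permutation p = 0.2, two-sided). Because the normalization covered both kinds of probe, the background level and the grapevine intensities are not independent measures.

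**Figure D1:**
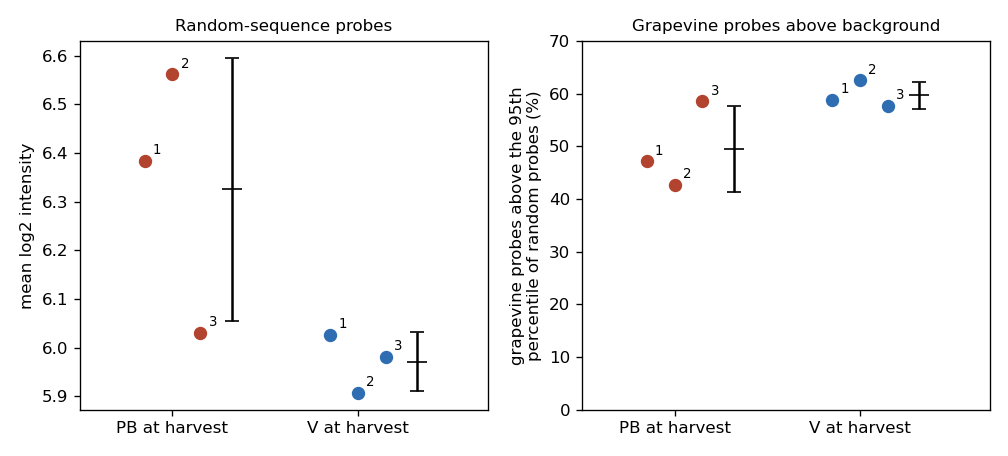
Background, as the random-sequence probes' mean log2 intensity (left), and share of grapevine probes above the 95th percentile of the random ones, in percent (right), for each harvest array of PB and V berries, with replicate numbers at the points and mean ± SD as bars. PB replicates 1 and 2 stand apart from the V arrays in both panels, and PB replicate 3 lies beside them.

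A total of 44455 grapevine probes (37.7%) were above this background on all 6 arrays and 35725 (30.3%) on none. All 3 PB arrays and no V array detected 35 probes (0.0297%), whereas all 3 V arrays and no PB array detected 881 (0.747%). Probes above background on every array of a group numbered 45840 in PB and 61303 in V. Detection in a single group was therefore uncommon in both directions and more frequent in V, where the background was lower.

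No probe passed the test between PB and V berries. A limma fit of the 6 arrays called 0 of 117999 probes (0%) at a Benjamini-Hochberg adjusted p below 0.02 with a difference of at least 2-fold, and the lowest adjusted p was 0.491. Unadjusted p-values below 0.05 were found for 4874 probes higher in PB (4.13%) and 6911 lower in PB (5.86%), 11785 in all. SAM, the test that the methods name, called 4 probes, all lower in PB. All 4 were below the background threshold on every PB array, and 2 of them are among the probes described below. The other 2 are not listed, since their identifiers name no gene.

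Differences past 2-fold between the group means were nevertheless frequent. They were found for 8958 probes higher in PB (7.59%) and 14786 lower in PB (12.5%). The 3 PB arrays all lay above the 3 V arrays for 10454 probes (8.86%) and all lay below them for 9163 (7.77%). Over all grapevine probes the median difference was 0.06 on the log2 scale. The 95% interval of a single probe's difference reached 1.08 to either side at the median, with quartiles of 0.865 and 1.44, so for the median probe a difference of 2-fold lay within its interval.

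The same fit on the random-sequence probes gave 0 of 19091 called (0%), with a lowest adjusted p of 0.715 by limma. At an unadjusted p below 0.05, 1186 were higher in PB (6.21%) and 111 lower (0.581%). At least 2-fold differences were seen in 2784 higher in PB (14.6%) and 293 lower (1.53%). All PB arrays were above all V arrays for 2004 of them (10.5%) and below for 430 (2.25%). By each of these measures other than the adjusted p, the share higher in PB was thus larger among probes of random sequence than among grapevine probes, and the share lower in PB was smaller.

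**Figure D2:**
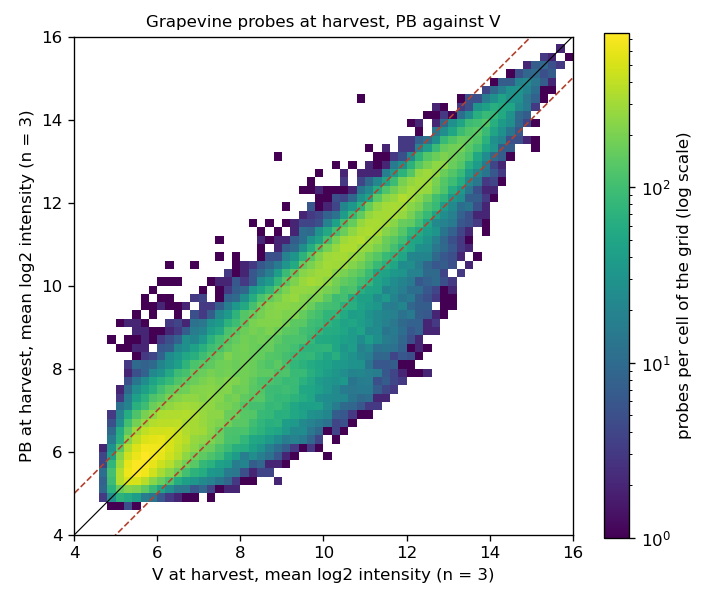
Mean log2 intensity of each grapevine probe at harvest in PB berries (vertical axis) against V berries (horizontal axis), n = 3 arrays each, as the number of probes per grid cell on a log colour scale, with the line of equality and dashed lines at 2-fold. More probes lie past the dashed line below equality (14786, lower in PB) than past the line above it (8958, higher in PB).

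The distance between the treatment means was set beside the distance that replicate spread alone gives, without a test. Taken over all probes, the PB and V means were 0.87 apart (root mean square, log2), where the spread between replicates alone gives 0.64. Such values add as squares, so 0.64 is not a share of 0.87. At EV these values were 0.36 and 0.35. The SD between replicates, summarised over probes in the same manner, was at harvest 0.92 in PB and 0.60 in V, against 0.45 in PB and 0.42 in V at EV. Both the distance and the replicate spread were thus larger at harvest than before.

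PB replicate 3 resembled the V arrays more than it resembled the other PB arrays. Pairs of PB arrays differed by 1.11 to 1.53 (root mean square, log2), with correlations across probes between 0.822 and 0.906. PB replicate 3 differed from the V arrays by only 0.670 to 0.970 (r from 0.926 to 0.965), a range close to that between V arrays, 0.688 to 1.02 (r from 0.919 to 0.963). PB replicates 1 and 2 differed from the V arrays by 1.06 to 1.73 (r from 0.771 to 0.913). These correlations are across probes within pairs of arrays and describe the arrays only, since probes are not independent replicates.

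Set against the mean of the V arrays, PB replicate 1 had 15205 probes at least 2-fold higher (12.9%) and 18480 lower (15.7%). In PB replicate 2 the counts were 25776 higher (21.8%) and 26458 lower (22.4%). In PB replicate 3 they were 5253 higher (4.45%) and 6374 lower (5.40%). Differences past 2-fold were thus several times more numerous in PB replicates 1 and 2, the arrays with the higher background, than in PB replicate 3. Without PB replicate 3, limma still called 0 probes at an adjusted p below 0.02, but 1679 at an adjusted p below 0.05 with at least 2-fold (125 higher and 1554 lower in PB), and 28814 had an unadjusted p below 0.05.

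Which probes differed by 2-fold depended on how bright they were. The grapevine probes were divided into 5 classes of equal size by their mean log2 intensity on 12 other arrays, those at the beginning of veraison (BV) and EV that carry the defoliation label. From the dimmest to the brightest class, 2458, 2874, 2339, 994 and 293 probes were at least 2-fold higher in PB. Those at least 2-fold lower in PB numbered 575, 2227, 4752, 4471 and 2761. In the dimmest class probes higher in PB were more numerous, as they were among the random-sequence probes, and in the 3 brighter classes those lower in PB were. These counts did not hold with each array's background level (the mean log2 of its random-sequence probes) as a covariate in the fit. That fit gave 1865 higher and 2191 lower in the dimmest class, 2416 and 3169 in the second and 1540 and 1988 in the middle. In the fourth it gave 855 and 644, and in the brightest 383 and 238. Only the middle class kept the side of its balance. The background level went with the treatment, from 6.03 to 6.56 in PB and from 5.91 to 6.03 in V. Within groups it varied mainly in PB (SD 0.27, against 0.06 in V), so its slope rested mainly on the PB arrays. The adjusted values therefore lean on PB replicate 3, the PB array nearest to V in background. The part of the background level in these counts was thus not tested. Median differences were 0.21, 0.09, -0.02, 0.01 and -0.05 on the log2 scale, and that of the middle class changed sign, to 0.06 and 0.05, with either of the other scalings. The fit with the covariate gave medians of -0.10, -0.07, 0.01, 0.06 and 0.08, lowest in the dimmest class and highest in the brightest.

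**Figure D3:**
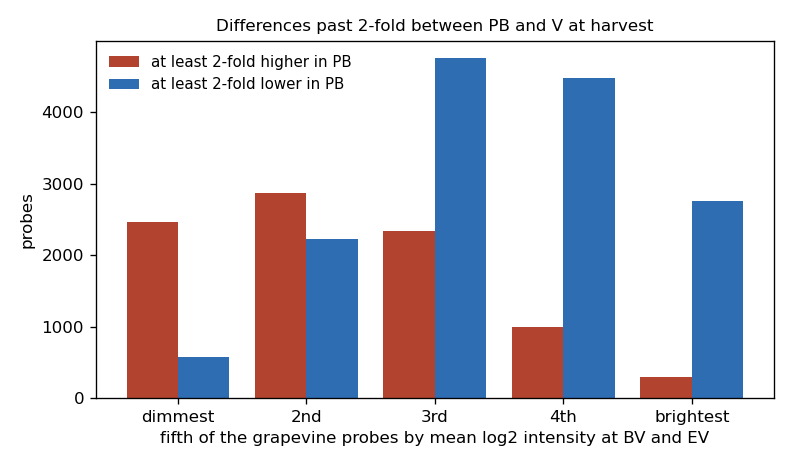
Number of grapevine probes at least 2-fold higher (red) or at least 2-fold lower (blue) in PB than in V berries at harvest, in 5 classes of equal size by mean log2 intensity at BV and EV. In the dimmest class 2458 were higher and 575 lower, and in the brightest 293 were higher and 2761 lower.

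Signal above background in each group was then counted for the probes past 2-fold. Of the 8958 probes higher in PB, 4584 (51.2%) were above the threshold on no V array, set beside 33.0% of all grapevine probes, and 3438 were above it on all PB arrays. Of these 4584, 2883 were above it on none of the 6 arrays, PB included. Of the 14786 lower in PB, 4068 (27.5%) were above it on no PB array, beside 38.2% of all grapevine probes, and 10151 were above it on all V arrays. Probes above it on none of the 6 arrays numbered 35725 among all 117999 but 707 among the 14786. The shares of 27.5% and 38.2% can therefore not be compared directly. Nor can 51.2% and 33.0%, since the 8958 probes were chosen for lower V values on these same arrays. Among the 44455 probes detected on all 6 arrays the median difference was 0.18, with 2447 at least 2-fold higher in PB (5.50%) and 1422 lower (3.20%). Within this set the balance was the opposite of that over all probes, and it kept that side under both other scalings. With the background level as a covariate the median was 0.04, and 474 were at least 2-fold higher and 291 lower. The requirement itself leaves out probes that fell below background in one group. Again 0 of these were called by limma, while 1909 higher and 943 lower in PB had an unadjusted p below 0.05.

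The same probes were then looked up in arrays that took no part in choosing them. At EV, the median difference between PB and V was 0.0036 for the probes higher in PB at harvest and -0.0034 for those lower. The C arrays at harvest did not take one side. For the probes higher in PB, whose medians at harvest were 8.60, 9.30 and 7.70 in PB and 7.20, 6.98 and 6.78 in V, the C replicates had 7.24, 8.03 and 7.92. For the probes lower in PB, with 7.06, 6.25 and 8.95 in PB and 8.91, 9.34 and 9.77 in V, the C replicates had 9.17, 7.48 and 7.51. C replicate 1 thus stood near the V arrays and C replicates 2 and 3 lay within the range of the PB arrays. The background levels of C replicates 1, 2 and 3 were 5.89, 6.29 and 6.26. The part of the background level in these differences was not tested.

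The values of 4 probes are given as examples, 2 in each direction. They had the smallest unadjusted p among probes whose groups did not overlap and whose higher group was above background on all 3 arrays, a condition met by 6555 probes higher and 6593 lower in PB. None passed the test (limma adjusted p = 0.491 for each). Their differences and intervals come from the same arrays that chose them and take no account of that choice.

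VitusP00163485 had intensities of 859.93, 1193.44 and 2398.9 in PB berries, against 245.08, 166.91 and 212.81 in V berries. All PB arrays were above the V arrays and above background, as the choice required, and PB replicate 3 had the highest value. The V values were at the background threshold, with 1 of 3 above it. Its log2 intensity averaged 10.40 ± 0.76 in PB and 7.68 ± 0.28 in V (SD, n = 3 each), a difference of 2.71 ± 0.45 (SE, 95% interval 1.65 to 3.78). With each V value under the background threshold raised to it, the V mean was 7.70. At EV it had 7.59 ± 0.64 in PB and 7.70 ± 0.63 in V. The C berries at harvest had 180.47, 1353.47 and 195.31, with replicate 2 in the range of the PB arrays and the others in that of the V arrays.

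VitusP00208467 showed the wider gap, with intensities of 8145.39, 22918.35 and 4245.27 in PB berries, against 434.94, 245.22 and 927.93 in V berries. It was above the background threshold on all 6 arrays. On the log2 scale it averaged 13.18 ± 1.23 in PB and 8.85 ± 0.96 in V (SD, n = 3 each), a difference of 4.32 ± 0.74 (SE, 95% interval 2.59 to 6.06). The difference was 2.72 with the background level as a covariate, the lowest of its alternatives, and 4.88 at the highest. Before harvest, at EV, it was dim in both groups, with 7.12 ± 0.73 in PB and 7.69 ± 0.41 in V. Among C berries at harvest it had 141.35, 3498.94 and 578.67, a spread wider on the log2 scale (SD 2.32) than that within either treatment.

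VitusP00088713 had the smallest p of all probes and differed in the other direction. Its intensities were 44.14, 34.89 and 46.07 in PB berries, against 356.32, 354.48 and 275.5 in V berries. It was above background on all V arrays and not above background on any PB array, where it was also below the mean of the random-sequence probes. The log2 averages were 5.37 ± 0.22 in PB and 8.35 ± 0.21 in V (SD, n = 3 each). The background threshold of the PB arrays, 8.67, 9.07 and 7.69, averaged more than the V signal, so no fold is given. Both groups had been brighter at EV, with 9.24 ± 0.45 in PB and 9.68 ± 0.30 in V, and the C berries at harvest had 148.8, 28.82 and 44.78.

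VitusP00180087 behaved in a similar way, with 41.48, 45.14 and 59.06 in PB berries, against 341.95, 291.56 and 396.38 in V berries. No PB array and all V arrays were above background, and again no fold is given. Its log2 intensity averaged 5.58 ± 0.27 in PB and 8.41 ± 0.22 in V (SD, n = 3 each). Unlike the probe before it, this one had been dim in both groups at EV, with 6.11 ± 0.22 in PB and 6.29 ± 0.61 in V. In C berries at harvest it had 316.54, 33.82 and 106.21, so that C replicate 1 was within the range of the V arrays.

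**Figure D4:**
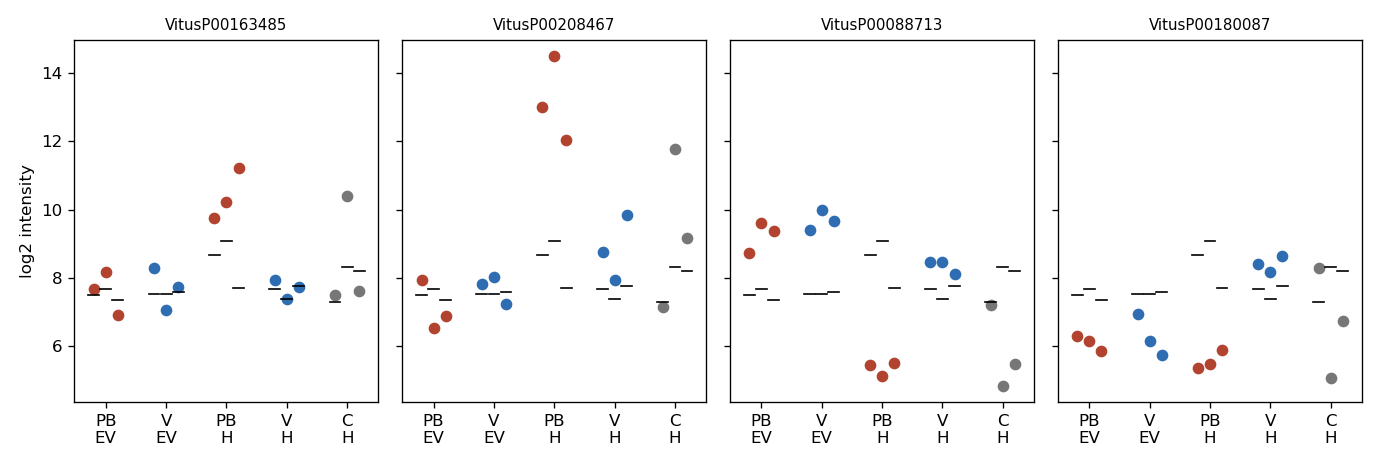
Log2 intensity of 4 probes on each array of PB and V berries at EV, PB and V berries at harvest (H) and C berries at harvest, 3 arrays per group, with a short line at each point for the 95th percentile of the random-sequence probes of that array. At harvest the PB and V points do not overlap for any of the 4 probes, as their choice required, and for the 2 at the right the PB points lie under the background lines.

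Whether the difference between the treatments changed from EV to harvest was tested as an interaction over 12 arrays. Limma called 0 of 117999 probes (0%), with a lowest adjusted p of 0.397 and 12657 probes at an unadjusted p below 0.05 (5848 positive and 6809 negative). At EV alone PB and V also differed by 0 called probes, with 7542 at an unadjusted p below 0.05. Across the 117999 probes, the difference at harvest and the difference at EV had a correlation of -0.005, which describes these arrays and has no test. None of the 4 probes passed this test (limma adjusted p = 0.458 for each), and no size is given, since each was not above background on at least some of these arrays. The interaction count moved with one array, since without PB replicate 3 at harvest it was 3551 (564 positive and 2987 negative).

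The arrays were also placed on axes of ripening built from other arrays. On the axis over all grapevine probes from C berries at BV (0%) to C berries at harvest (100%), the PB arrays lay at 102.9%, 113.4% and 71.3%, and the V arrays at 71.3%, 62.8% and 59.95%. PB replicates 1 and 2 lay past the mean position of ripe C berries, while PB replicate 3 and V replicate 1 were at the same place to within the last digit. PB averaged 95.9% ± 21.9 and V 64.7% ± 5.92 (SD, n = 3 each), a difference of 31.2 percentage points (exact permutation p = 0.2, two-sided), or of 14.2 with the axis restricted to the probes called between its ends. The C arrays at harvest that end the axis were themselves at 73.5%, 114% and 112%, and their labels describe a cluster-thinning experiment, whose part in these positions was not tested. The C arrays at BV that start the axis carry the defoliation label, so stage and label set cannot be told apart on it. PB replicates 1 and 2 and C replicates 2 and 3, all past 100%, had background levels of 6.38, 6.56, 6.29 and 6.26. PB replicate 3 and C replicate 1 had 6.03 and 5.89, and the V arrays 6.03, 5.91 and 5.98. The part of the background level in these positions was not tested.

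A second axis used only arrays with the defoliation label, from BV (0%) to EV (100%), and gave the other order. The PB arrays lay at 112%, 103% and 113%, and the V arrays at 112%, 119% and 148%. V replicate 3 was the farthest along, and the remaining arrays of both groups overlapped. The averages were 109% ± 5.51 in PB and 126% ± 19.3 in V (SD, n = 3 each), a difference of -17.0 percentage points (exact permutation p = 0.2, two-sided), or of -6.01 without V replicate 3. The difference passed the test on neither axis, and both p-values remained 0.2 after Benjamini-Hochberg adjustment over the 5 measures.

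**Figure D5:**
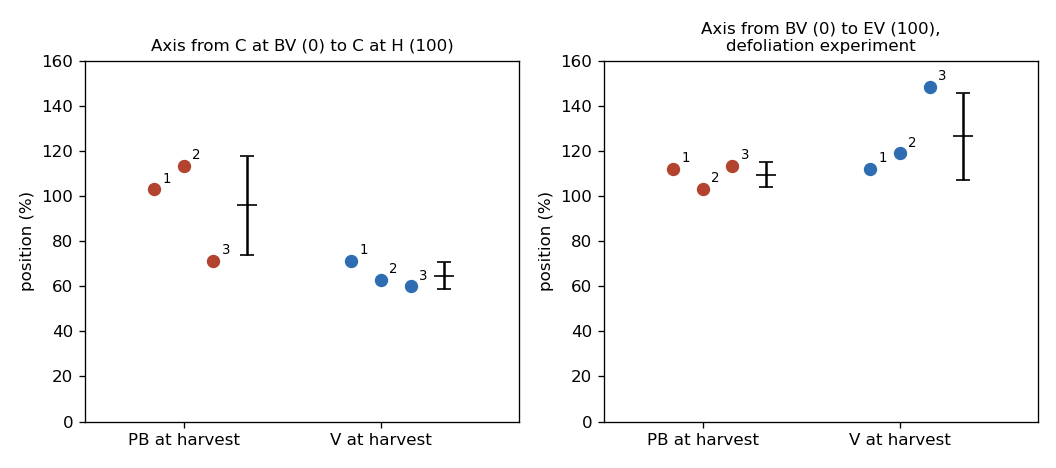
Position of each PB and V array at harvest, in percent, on an axis from C berries at BV (0) to C berries at H (100) (left) and on an axis from BV (0) to EV (100) of arrays with the defoliation label (right), with replicate numbers at the points and mean ± SD as bars. PB averages 95.9% and V 64.7% on the left axis, and PB 109% and V 126% on the right.

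Probes that changed from C at BV to C at harvest differed in the same direction from V to PB replicates 1 and 2. In PB replicate 3 they hardly did. The C arrays at BV carry the defoliation label and those at harvest a cluster-thinning description. The background levels of these arrays were 5.90 ± 0.13 at BV and 6.15 ± 0.22 at harvest (SD, n = 3 each). Stage and label set can therefore not be told apart in the lists from C berries. A limma fit of the C arrays alone called 4584 probes that rose from BV to harvest. Their median log2 intensity was 10.91, 11.14 and 10.40 in PB berries at harvest, against 10.34, 10.24 and 10.28 in V berries. All PB arrays were above all V arrays, PB replicate 3 by the smallest margin, and C berries had 10.43, 10.88 and 10.77. The median difference between PB and V was 0.46, with 616 probes (13.4%) at least 2-fold higher and 92 (2.01%) at least 2-fold lower in PB, set beside a median of 0.06, 7.59% and 12.5% over all probes. It was 0.09 for PB replicate 3 alone against the V mean. With the background level in the fit it was 0.02 over the list, where 180 were at least 2-fold higher and 99 lower. In this list and those below, PB replicate 3 alone and the fit with the background level are not separate checks. The slope of that level rested mainly on the PB arrays. None of the 4584 was called by limma, and 454 higher and 29 lower in PB had an unadjusted p below 0.05.

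The 4379 probes that fell in C berries over the same interval had medians of 7.51, 7.31 and 8.06 in PB berries at harvest, against 8.45, 8.11 and 7.75 in V berries. PB replicates 1 and 2 were below the V arrays, and PB replicate 3 was among them. C berries had 7.95, 7.50 and 7.78. The median difference was -0.26, and 158 probes (3.61%) were at least 2-fold higher and 846 (19.3%) at least 2-fold lower in PB. For PB replicate 3 alone the median was 0.02, and with the background level in the fit it was 0.04 over the list (360 higher and 509 lower by 2-fold), so its sign was not kept. Limma called 0 of these probes, while 76 higher and 320 lower in PB had an unadjusted p below 0.05.

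The lists from the earlier ripening step, BV to EV on arrays with the defoliation label, held 1421 probes that rose and 2786 that fell. For those that rose, the medians were 10.55, 10.35 and 10.40 in PB and 10.50, 10.49 and 10.82 in V, with the groups overlapping. The median difference was -0.18, and 68 probes (4.79%) were at least 2-fold higher and 324 (22.8%) lower in PB. Here PB replicate 3 differed from the V mean by -0.20, as much as the group did, and the fit with the background level left the list at -0.15, but with 62 probes at least 2-fold higher and 77 lower, and 13 higher and 20 lower at an unadjusted p below 0.05. For those that fell, the medians were 7.17, 7.23 and 7.28 in PB and 7.45, 7.30 and 6.98 in V, and the median difference was 0.11, with 276 (9.91%) higher and 240 (8.61%) lower by 2-fold. It was 0.22 (352 higher and 192 lower) with median centring and MAD scaling, and 0.04 (292 higher and 296 lower) with the background level in the fit, so the balance of the counts was not kept. No probe of either list was called by limma, and those with an unadjusted p below 0.05 were 53 higher and 167 lower in PB in the rising list, and 157 higher and 91 lower in the falling list.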

How the data were processed

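The authors deposited linear fluorescence intensities for each probe, normalized over all rows, from one-colour NimbleGen grapevine arrays, and the software used is not given in the sources used here. They were put on the log2 scale without filter or further normalization. Groups came from the sample titles. The 6 arrays were fitted with limma (lmFit and eBayes, R 4.3.3, limma 3.58.1), with calls made at an adjusted p (Benjamini-Hochberg) below 0.02 and at least 2-fold. Random-sequence probes were fitted separately. Values per array were compared by exact permutation tests. SAM was reimplemented with all 20 label arrangements. An array's axis position is its projection on the difference of 2 group means. The 4 probes named were taken by the rule in the text, which fills places left empty by called probes. Alternatives were other scalings, filters, samples, covariates, weights, thresholds and leaving out each array. Fits were tested on simulated data. Members, lists and tests were chosen with earlier results of these data known. No gene lists were analysed here, as 0 probe identifiers matched the gene table used.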

Additional observations from a re-analysis of the deposited data

How the results depend on the processing

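The count of 0 called probes between PB and V was also found with both other scalings, both filters (29500 and 16312 probes left out), the 24-array fit, the random-probe covariate, the trend and robust prior, other thresholds and each array left out at the main threshold (0 to 0). It became 19 (3 higher, 16 lower in PB) in the fit of the 18 arrays with the defoliation label, 4 with SAM (0 and 4), 27636 (12573 and 15063) with array quality weights, and 1679 without PB replicate 3 at an adjusted p below 0.05. The weights were 6.41, 0.229 and 0.296 for the PB arrays and 0.974, 4.999 and 0.473 for the V arrays, so PB replicate 1 and V replicate 2 dominated that fit. The same weights called 4898 random-sequence probes (4389 and 509), an alternative added after seeing the data, as was the count at 0.05 without PB replicate 3. Weights estimated on the random-sequence probes themselves, also added after seeing the data, called 0 of them. The interaction count became 1 with the random-probe covariate, and ran from 0 to 3551 on leaving out an array, the highest without PB replicate 3.

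With the replicate number as a block, 0 probes were called and 13101 had an unadjusted p below 0.05. The correlations of deviations in pairs of the same number were 0.08, -0.15 and 0.09, and those in pairs of other numbers ran from -0.22 to 0.17. With so few arrays these values cannot show whether equal numbers came from the same block, which the labels do not say.

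On leaving out an array, the counts at an unadjusted p below 0.05 ran from 4798 (without V replicate 2) to 28814 (without PB replicate 3), with 5010 without V replicate 3, 5925 without PB replicate 1 and 7237 without PB replicate 2. In other settings they ran from 3677 (random-probe covariate) to 61903 (weights). Without an array, the distance ran from 0.72 to 1.19, the random-probe difference from 0.24 to 0.50, the detection difference from -14.8 to -6.83 points, and the axis differences from 22.4 to 43.5 and from -24.2 to -6.01 points. Adjusted p-values of the 4 probes ran from 0.00327 (weights) to 1.00 by limma. The 2 probes lower in PB also passed in the 18-array fit. Gene-list alternatives were not run.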

Other observations

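At EV the C arrays had the highest random-probe level of all groups (6.73 ± 0.42, SD, n = 3), and an axis from the PB and V arrays at EV (0%) to the C arrays at EV (100%) was added after seeing the data. A cluster-thinning experiment is described for these C arrays, as for those at harvest, so the lack of defoliation and the label set cannot be told apart on this axis. On it the PB arrays at harvest lay at 53.3%, 69.5% and 17.9%, and the V arrays at 15.6%, 6.68% and 5.87%. The random-probe levels of the same arrays were 6.38, 6.56 and 6.03 in PB, and 6.03, 5.91 and 5.98 in V. All PB arrays were farther along than all V arrays, PB replicate 3 by the smallest margin, and the difference of 37.5 percentage points gave an exact permutation p of 0.1, the smallest possible, or 0.2 after Benjamini-Hochberg adjustment over the 5 measures. Across the 117999 probes, the difference between PB and V at harvest had a correlation of 0.61 with the difference of C from PB and V at EV, of 0.43 with the change of C from BV to harvest, and of -0.10 with the change from BV to EV on the arrays with the defoliation label. These correlations share no array between their 2 sides, describe probes of arrays normalized together, and have no test. The part of the background level in the positions and in the correlations was not tested.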
